A study of Mus musculus with 2 samples.

Results

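The MAP kinase cascade genes were taken as every protein-coding gene of the mm9 annotation (GENCODE vM1) whose symbol is Mapk, Map2k, Map3k or Map4k followed by a digit. The rule gave 45 genes of 22283 protein-coding genes. They were sorted by tier into 5 MAP4K, 15 MAP3K, 7 MAP2K and 13 MAPK genes, with 5 genes for interacting proteins (Mapk1ip1, Mapk1ip1l, Mapk8ip1, Mapk8ip2 and Mapk8ip3) kept apart because they do not encode kinases of a tier. A Tcf1 peak was assigned to a gene when its summit lay in the gene body or within 10 kb of either end. In all, 94 of the 22286 deposited peaks met this rule, and they made 96 pairs of gene and peak because Mapk11 and Mapk12 are neighbours and share 2 of them.

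Tcf1, the product of Tcf7, is an HMG-box transcription factor of T cells, and chromatin immunoprecipitation with sequencing (ChIP-seq) with an anti-Tcf1 antiserum located its binding in naïve CD8+ T cells sorted from mouse spleen. The WT group was 1 library labelled wild type, and the Tcf1-deficient group was 1 library that served as the control in peak calling. Both libraries came from sorted cells labelled GFP+ TCRbeta+ CD62Lhi CD44lo-med CD8+, and the series' design text states that the donor mice carried hCD2-Cre and Rosa26-lsl-GFP. The Tcf1-deficient group is labelled Tcf1-/-Lef1-/- in its genotype field and double floxed in the design text, whereas the methods describe Cd4-Cre+ Tcf7 fl/fl mice, so the loss of Lef1 and the Cre driver of the control cells cannot be told from these sources. The methods give C57BL/6 mice of both sexes aged 6 to 12 weeks, with no age for these 2 libraries. Because each group held 1 library, no replicate check was possible. All intervals given here are 95% intervals that cover counting error only, and p-values of the peak caller compare the 2 libraries.

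The MAP kinase cascade passes a signal along kinases that phosphorylate one another in order. A MAP4K or a small GTPase activates a MAP3K, the MAP3K phosphorylates a MAP2K, and the MAP2K phosphorylates a MAPK, which acts on transcription factors and on further kinases. The terminal kinases form the ERK, JNK, p38 and ERK5 groups, and in T cells the cascade is known for carrying signals from the antigen receptor, from costimulation and from cytokine and stress receptors.

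The list records, for each peak, the pileup, a count of WT fragments at the summit, and the fold enrichment, which is the pileup plus 1 divided by the control level plus 1, the control level being what the peak caller derived from the Tcf1-deficient library. The WT library kept 36938606 fragments and the Tcf1-deficient library 27625250. The control level has a genome-wide floor of 5.42 fragments, and 79 of the 94 peaks (84.0%) sat at that floor, against 82.9% of all peaks. At the 94 peaks the control level ran from 5.42 to 9.36 fragments. Peaks were called high-confidence at a fold enrichment of at least 4 with p under 1e-05 and q under 0.05. Tcf7 itself had 11 peaks, which do not measure Tcf1 protein, so the loss of Tcf1 in the control cells was not checked here.

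Tcf1 peaks lay at 38 of the 45 cascade genes (84.4%), against 52.5% of all protein-coding genes. High-confidence peaks lay at 33 (73.3%), against 48.7%. A peak within 1 kb of one of the gene's own transcription start sites was present at 30 cascade genes, where 36.7% of all protein-coding genes had one. The number of peaks per gene ran from 0 to 11, with a mean of 2.13 (interval 1.73 to 2.61) and a median of 2, against a mean of 1.13 and a median of 1 over all protein-coding genes. Among the 45 genes, 7 had no peak, 14 had 1, 11 had 2, 5 had 3 and 8 had at least 4. The 8 genes with at least 4 peaks made up 17.8% of the cascade genes, against 6.92% of protein-coding genes.

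The windows of cascade genes were longer. Their median window (the gene body with 10 kb at either end) was 60.9 kb, against 35.5 kb over all protein-coding genes. Per 100 kb of window the cascade genes held 2.62 peaks and all protein-coding genes 1.72. Within classes of window length, 16 of 19 cascade genes under 50 kb had a peak (84.2%, against 47.0% of protein-coding genes of that class), as did 13 of 15 between 50 and 100 kb (86.7%, against 66.6%) and 9 of 11 over 100 kb (81.8%, against 59.5%). The share was thus above that of protein-coding genes in each class. The classes are broad, and length within a class was not matched. The shortest cascade window was 25.4 kb, while the class under 50 kb also held shorter genes. Protein-coding genes with windows of 20 to 25 kb had a mean of 0.551 peaks, against 1.07 at 30 to 40 kb. Gene expression was not measured in these libraries, and its part in these shares was not tested.

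**Figure D1:**
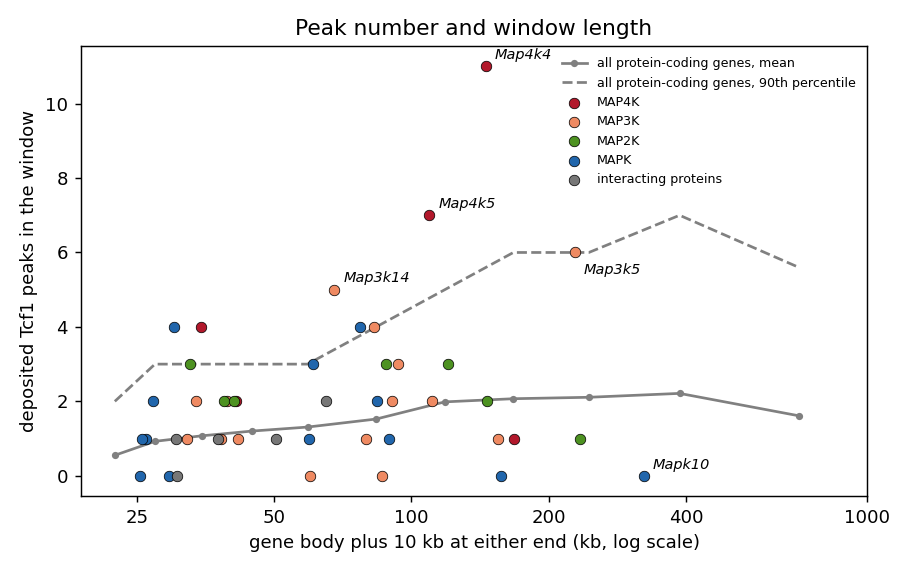
Each point is 1 cascade gene, coloured by tier, with the length of its window in kb (log scale) on the x axis and its number of deposited Tcf1 peaks on the y axis. Grey lines give the mean and the 90th percentile over all protein-coding genes in bins of window length. Map4k4 with 11 peaks, Map4k5 with 7 and Map3k14 with 5 lie above the 90th percentile line, as do Map4k2 and Mapk12 with 4 each, while Mapk10, with the longest window of 323 kb, has none.

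The tiers differed in how many peaks they held. The 5 MAP4K genes held 25 peaks, a mean of 5 per gene (interval 3.24 to 7.38). The 7 MAP2K genes held 16, a mean of 2.29 (interval 1.31 to 3.71), and the 15 MAP3K genes held 31, a mean of 2.07 (interval 1.40 to 2.93). The 13 MAPK genes held 17 distinct peaks and 19 pairs, a mean of 1.46 (interval 0.880 to 2.28), and the 5 genes for interacting proteins held 5, a mean of 1. The intervals of the MAP4K and MAP3K tiers did not overlap, nor did those of the MAP4K and MAPK tiers, whereas the MAP2K interval overlapped each of the others and the MAP3K and MAPK intervals overlapped. Peaks of 1 gene are not independent of each other, so these intervals are narrower than the spread among genes. Per 100 kb of window the MAP4K genes led as well, at 5.02, 2.5, 2.28 and 1.87 peaks for MAP4K, MAP3K, MAP2K and MAPK.

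The lead of the top tier rested in part on 1 gene. Without Map4k4, which alone had 11 of the 25 peaks, the other 4 MAP4K genes held 14 peaks, a mean of 3.50 per gene (interval 1.91 to 5.87) and 3.97 per 100 kb, and this interval overlapped that of every lower tier. Every MAP4K and every MAP2K gene had a peak, as did 13 of 15 MAP3K genes, 9 of 13 MAPK genes and 4 of 5 genes for interacting proteins. Over all protein-coding genes 52.5% had one. The MAPK share, 69.2% with a median window of 59.7 kb, was near the 66.6% of protein-coding genes with windows of 50 to 100 kb.

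**Figure D2:**
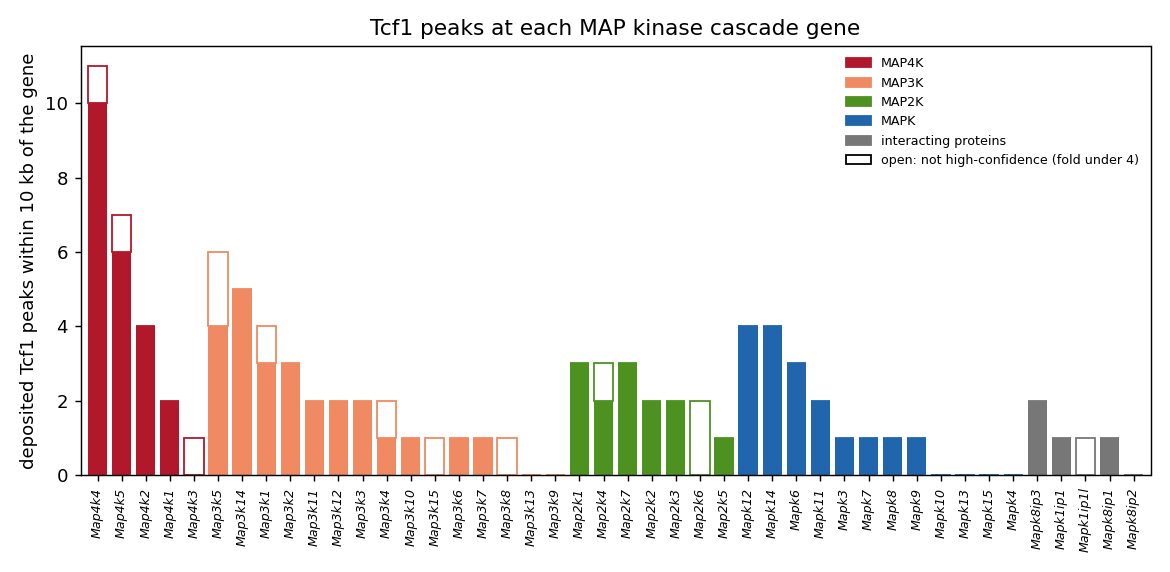
Bars give the number of deposited Tcf1 peaks within 10 kb of each cascade gene, ordered by tier and then by number, with 1 gene of the MAPK tier not drawn. Filled parts are high-confidence peaks and open parts are peaks with a fold enrichment under 4. Map4k4 has 11 peaks and Map4k5 7, Map3k5 and Map3k14 lead the MAP3K tier with 6 and 5, no MAP2K gene exceeds 3, and 7 genes have none.

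In strength the cascade peaks resembled the whole peak list. Their median fold enrichment was 5.61 (interval 5.30 to 7.32), against 6.09 for all deposited peaks, and 81 of the 94 were high-confidence (86.2%, against 85.4%). A fold enrichment of at least 20 was reached by 7 of them (7.45%, against 6.82%), and one of at least 10 by 21 (22.3%, against 23.4%). By tier the median was 5.45 for MAP4K, 5.76 for MAP3K, 5.30 for MAP2K and 5.92 for MAPK peaks, and each fell inside the interquartile range of all peaks. The tier medians thus differed little beside the spread of single peaks.

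**Figure D3:**
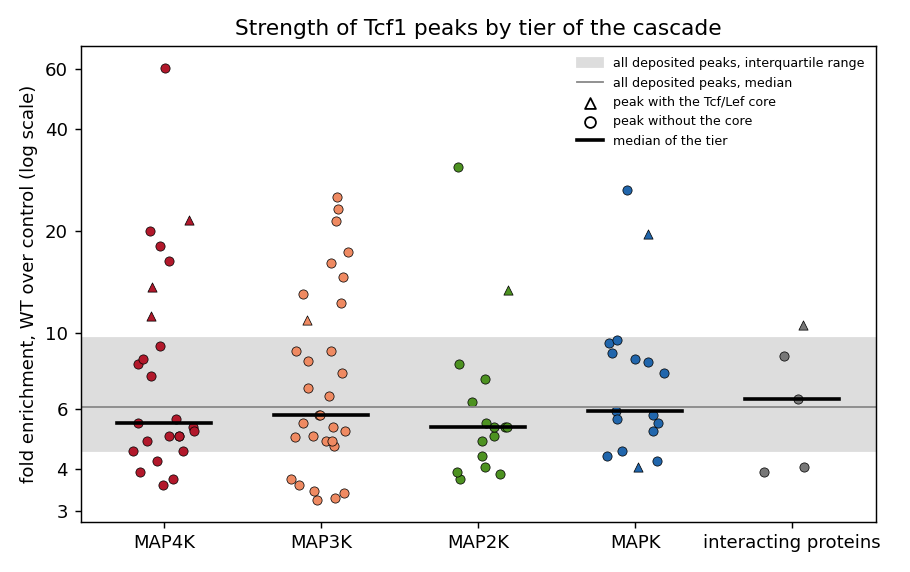
Each symbol is 1 peak at a cascade gene, with its fold enrichment of WT over control on a log axis, by tier. Triangles carry the Tcf/Lef core near the summit (up to 100 bp away) and circles do not, black bars are the tier medians, and the grey band and line give the interquartile range and median of all deposited peaks. The tier medians lie close together, at 5.30 to 6.39, while single peaks reach 60.5 in the MAP4K, 25.1 in the MAP3K, 30.9 in the MAP2K and 26.3 in the MAPK tier.

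Map4k4 encodes a kinase at the top of the cascade that acts upstream of JNK. The gene lies on the plus strand at chr1:39957758-40083155 (mm9), and its 11 peaks spread over 85.2 kb, from 5.20 kb before the 5′ end to 80.0 kb inside the gene. All of the 11 lay in no other gene's window and had Map4k4 as the nearest protein-coding start site. Only 111 protein-coding genes (0.498%) had as many peaks. The summits of 7 of them lay in intron 2. The strongest peak, chr1:39974372-39975884, lay there, 17.0 kb from the 5′ end, and was 1513 bp wide with a pileup of 387 (interval 349 to 428) over a control level of 5.42. Its fold enrichment of 60.5 (interval 54.6 to 66.8) ranked 47 of all 22286 peaks, and its pileup ranked 156.

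Further strong peaks lay on both sides of it. One at 35.5 kb (chr1:39992916-39993810) had a pileup of 137 and a fold enrichment of 21.5. One at 53.9 kb had 115 and 18.1, and one at 6.35 kb had 87 and 13.7. Upstream of the gene, a pair of peaks at −5.20 kb and −4.25 kb had fold enrichments of 11.3 and 8.41. The peak at the 5′ end was weaker, with a pileup of 31 and a fold enrichment of 4.99, and its neighbour at 0.814 kb had 24 and 3.90, the only Map4k4 peak that was not high-confidence. The remaining 3, at 3.96, 60.4 and 80.0 kb, had fold enrichments of 4.21, 4.99 and 4.99. Binding at Map4k4 was thus strongest inside intron 2 and weak at the 5′ end of the gene.

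The sequences around a pair of Map4k4 summits are shown, one for the strongest peak at a cascade gene and one for the strongest Map4k4 peak that holds the Tcf/Lef core. Both strands were searched for motifs up to 100 bp from a summit, namely the Tcf/Lef core ATCAAAG, the ETS core CGGAAGT and the Runx core TGTGGTT. None of the 3 is contained in another. The bases up to 100 bp either side of the strongest summit (chr1:39974705-39974905, mm9, plus strand) held the Runx core at 2 places, in capitals, and no match to the Tcf/Lef core. The bases around the peak at 35.5 kb (chr1:39993169-39993369, plus strand) held the Tcf/Lef core, in capitals.
Map4k4 intron 2 at 17.0 kb: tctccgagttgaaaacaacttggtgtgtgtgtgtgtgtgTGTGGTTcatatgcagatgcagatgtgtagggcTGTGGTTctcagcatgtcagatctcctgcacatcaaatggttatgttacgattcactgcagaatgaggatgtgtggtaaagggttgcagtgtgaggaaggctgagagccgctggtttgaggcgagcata
Map4k4 intron 2 at 35.5 kb: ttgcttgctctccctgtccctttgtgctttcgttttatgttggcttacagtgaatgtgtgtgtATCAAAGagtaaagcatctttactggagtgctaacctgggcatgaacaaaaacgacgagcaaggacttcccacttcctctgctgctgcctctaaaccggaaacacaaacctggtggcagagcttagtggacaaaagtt
The peaks at −5.20 kb and 6.35 kb held the Tcf/Lef core as well, 1 bp and 26 bp from their summits. Map4k4 therefore carried all 3 of the core matches in the MAP4K tier, and the other 14 peaks of the tier held none.

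Map4k5 encodes a further germinal centre kinase of this tier. On the minus strand at chr12:70904737-70994187, it had 7 peaks, a number reached by 371 protein-coding genes (1.66%). Its strongest peak lay in intron 2, 29.5 kb from the 5′ end (chr12:70964356-70964945, 590 bp wide), with a pileup of 127 over a control level of 5.42, for a fold enrichment of 19.9. The other 6 ran from 3.74 to 7.48. The Runx core was present at 4 of the 7 Map4k5 peaks and at 4 of the 11 Map4k4 peaks. These 8 were the only Runx core matches in the MAP4K tier, in which 32% of peaks held the core against 14.8% of all peaks. The share was 16.1% in the MAP3K, 6.25% in the MAP2K and 5.88% in the MAPK tier, and 0% at the interacting-protein genes. Over all cascade peaks it was 16.0%. Among all deposited peaks more than 1 kb from a start site, 20.5% held it.

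Map4k2 (germinal centre kinase) had 4 peaks, all of them also in a neighbour's window. The strongest, chr19:6339802-6340382 (581 bp), with a pileup of 104 over a control level of 5.42, for a fold enrichment of 16.4, lay 0.171 kb from the start site of Men1. The peak at the Map4k2 start site had a fold enrichment of 5.45. Map4k1 (HPK1, known as a negative regulator of antigen receptor signalling) had 2 start-site peaks at 8.10 and 4.83, of which the stronger was nearest to the start of Eif3k. Map4k3 (GLK) had 1 peak, at its start site, with a pileup of 22 and a fold enrichment of 3.58, which was not high-confidence.

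In the MAP3K tier, peaks lay at 13 of 15 genes (86.7%, against 52.5% of all protein-coding genes). A fold enrichment of at least 10 was reached by 9 of the 31 peaks (29.0%, against 23.4% of all deposited peaks). Map3k5 encodes ASK1, a kinase of the stress response, and had 6 peaks along a gene of 208 kb. They ran from the start site (5.14) over intron 1 (8.88 and 14.7), intron 7 (3.43) and intron 23 (5.76) to a peak 6.17 kb past the 3′ end (3.58) at the start of Mtap7. The strongest, chr10:19711463-19711988 (526 bp), lay 57.5 kb from the 5′ end and had a pileup of 102 over a control level of 6.02. Of its peaks, 2 were not high-confidence.

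Map3k14 encodes NIK, the kinase of the alternative NF-κB pathway. Its 5 peaks, all high-confidence, had the highest median fold enrichment among genes with at least 4 peaks except Mapk12, at 10.9. The strongest lay at the start site (chr11:103128495-103129220, 726 bp) with a pileup of 136 over a control level of 5.42, for a fold enrichment of 21.3. In intron 1, peaks at 1.37, 4.85 and 6.46 kb had fold enrichments of 10.9, 8.27 and 6.54. Their intervals, 8.52 to 13.8, 6.29 to 10.7 and 4.74 to 8.82 in that order, overlapped. The fifth, with 13.1, lay 1.29 kb past the 3′ end, at the start of 4933400C05Rik.

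Map3k1 (MEKK1) had 4 peaks, and the strongest, chr13:112597639-112599072 (1434 bp), covered the start-site region with a pileup of 148 over a control level of 5.42, for a fold enrichment of 23.2. Its other 3 peaks ran from 3.74 to 5.76. Map3k4 (MEKK4) had the strongest peak of the tier, in intron 1, 10.7 kb from the 5′ end (chr17:12500198-12501262, 1065 bp), with a pileup of 160 over a control level of 5.42, for a fold enrichment of 25.1 (interval 21.4 to 29.3). Map3k4 had no peak at its own start site, and its other peak, in intron 11, had a fold enrichment of 3.23. The 2 annotation entries that overlap at Map3k4 on opposite strands were joined.

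Some peaks in MAP3K windows lay nearer to the start sites of neighbours. For Map3k2 (MEKK2), with 3 peaks, one with a pileup of 102 over a control level of 5.42, for a fold enrichment of 16.0 (chr18:32399599-32400220, 622 bp) lay 3.53 kb past the 3′ end at the start of Ercc3, while its own start-site peak had 7.63 and an upstream peak 5.45. For Map3k3 (MEKK3), with 2 peaks, a broad one of 2100 bp (chr11:106020499-106022598) with a pileup of 85 over a control level of 6.02, for a fold enrichment of 12.3 lay at the start of Limd2, and its own start-site peak had 4.83. For Map3k12 (DLK), the 2 peaks were both upstream and both nearer to another gene: one of 17.3 (chr15:102356384-102357378, 995 bp, pileup 110, control level 5.42) to Npff and one of 8.88 to Tarbp2. Which gene such a peak acts on was not measured.

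The remaining MAP3K genes had at most 2 peaks each, all with a fold enrichment under 10. Map3k7, which encodes TAK1, a kinase downstream of cytokine receptors and of the antigen receptor, had 1 start-site peak at 6.90. Map3k11 and Map3k10, of the mixed-lineage kinases, had 2 start-site peaks at 4.99 and 4.95 and 1 at 4.67, and Map3k6 (ASK2) had 1 upstream peak at 5.30. At Map3k8 (Tpl2) and Map3k15 the only peak had a fold enrichment of 3.38 and 3.27, below the high-confidence limit. No peak lay in the windows of Map3k9 and Map3k13, for which the nearest deposited peak was 58.6 and 45.9 kb from the gene.

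**Figure D4:**
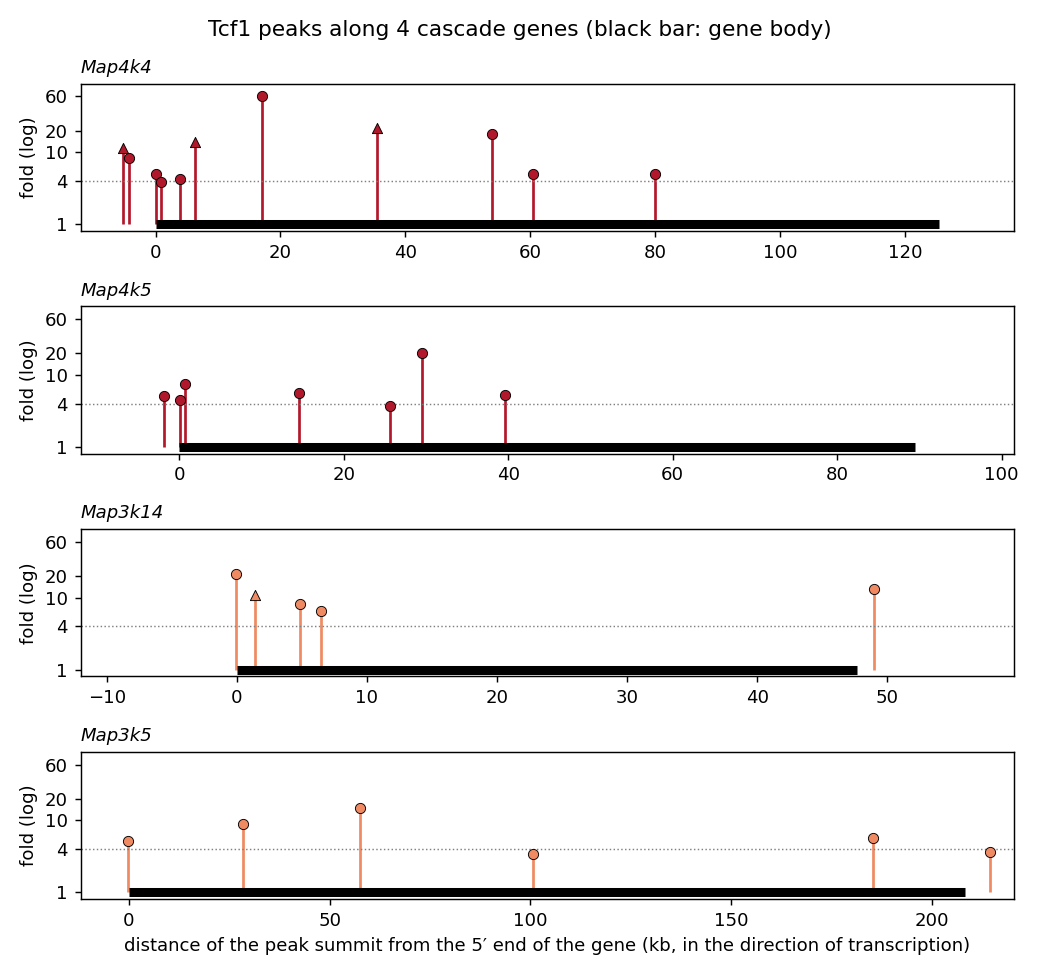
For Map4k4, Map4k5, Map3k14 and Map3k5, each stem is 1 Tcf1 peak, placed by the distance of its summit from the 5′ end of the gene in kb in the direction of transcription, with its fold enrichment on a log axis. Black bars are the gene bodies, triangles are peaks with the Tcf/Lef core, and the dotted line marks a fold enrichment of 4. At Map4k4, Map4k5 and Map3k5 the highest stem (60.5, 19.9 and 14.7) stands in an intron, at 17.0, 29.5 and 57.5 kb, whereas at Map3k14 the highest (21.3) stands at the start site.

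In the MAP2K tier every gene had a peak, against 52.5% of all protein-coding genes. A fold enrichment of at least 10 was reached by 2 of 16 peaks (12.5%), against 23.4% of all deposited peaks. Map2k2 (MEK2, which activates ERK) held the strongest, chr10:80590074-80591317 (1244 bp), with a pileup of 257 (interval 227 to 290) over a control level of 7.35, for a fold enrichment of 30.9 (interval 27.2 to 34.9). It lay 2.97 kb past the 3′ end, also in the window of Zbtb7a, and the nearest protein-coding start site was that of a Map2k2 transcript 5.51 kb away. The other of its 2 peaks, at the start site, had 8.10. Map2k5, which activates ERK5, had a single peak, in intron 21, 204 kb from the 5′ end (chr9:63021733-63022285, 553 bp), with a pileup of 85 over a control level of 5.42, for a fold enrichment of 13.4. The nearest protein-coding start site to it was that of Skor1, 25.2 kb away.

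The peaks at the remaining MAP2K genes had fold enrichments under 10. Map2k1 (MEK1) had a start-site peak at 7.32, an intron 1 peak at 6.27 and a peak at the start of the neighbour Snapc5 at 4.83. Map2k4 and Map2k7, the activators of JNK, had 3 peaks each, from 3.73 to 5.30 and from 4.05 to 5.45. Map2k3 and Map2k6, the activators of p38, had 2 each, at 4.99 and 5.30 for Map2k3 and at 3.85 and 3.90, not high-confidence, for Map2k6.

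Of the MAPK genes, Mapk12 and Mapk14 of the p38 group had 4 peaks each. The Mapk12 (p38γ) window held the strongest of the tier, in intron 11 (chr15:88961601-88962297, 697 bp), with a pileup of 168 over a control level of 5.42, for a fold enrichment of 26.3 (interval 22.5 to 30.6), and a peak 2.11 kb past its 3′ end with a pileup of 125 and a fold enrichment of 19.6 (chr15:88958547-88959235). The nearest protein-coding start site of both was that of Hdac10, at 2.84 and 0.025 kb. The other 2 Mapk12 peaks, at 5.14 and 4.36, were those of its neighbour Mapk11 (p38β), so none of the 4 had Mapk12 as the nearest gene. Mapk14 (p38α) differed from this, since all 4 of its peaks were nearest to its own start sites. The strongest, in intron 1 at 6.12 kb (chr17:28834159-28835524, 1366 bp), had a pileup of 85 over a control level of 8.02, for a fold enrichment of 9.53, and the stronger of 2 start-site peaks had a pileup of 71 and a fold enrichment of 9.37. These pileups of 85 and 71 had overlapping intervals, 67.9 to 105 and 55.5 to 89.6. The other start-site peak had a pileup of 37 and a fold enrichment of 5.92, and the fourth peak, in intron 1, had 34 and 5.45.

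Mapk3 (ERK1) had 1 start-site peak, with a pileup of 55 and a fold enrichment of 8.73. The single peaks of Mapk8 (JNK1), Mapk9 (JNK2) and Mapk7 (ERK5) lay at their start sites, with pileups of 52, 35 and 48 and fold enrichments of 8.26, 5.61 and 7.63. Mapk6 (ERK3, an atypical MAPK) had 3 peaks, of 8.41 at the start site, 4.52 in intron 1 and 4.21 upstream. No peak lay in the windows of Mapk4 (ERK4), Mapk10 (JNK3), Mapk13 (p38δ) and Mapk15. The nearest deposited peak was 93.1, 130, 22.8 and 11.6 kb from these genes, in that order. Every one of the 17 MAPK-tier peaks was high-confidence, against 85.4% of all deposited peaks. Their start-site share was 58.8% (interval 32.9 to 81.6). That interval contains both the 39.2% of all deposited peaks and the 48.1% of peaks in windows of protein-coding genes.

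Read by arm of the cascade, with MAP2K and MAPK genes together, all 4 ERK genes had a peak (8 peaks), as did 4 of 5 JNK genes (8 peaks), 5 of 6 p38 genes (12 peaks) and both ERK5 genes (2 peaks). Over all protein-coding genes 52.5% had one. Per 100 kb of window the ERK, JNK, p38 and ERK5 arms held 3.38, 1.28, 3.99 and 0.770 peaks, against 1.72 over all protein-coding genes. The median fold enrichment was 6.80 in the ERK arm, 5.30 in the JNK arm, 5.38 in the p38 arm and 10.5 over the 2 peaks of the ERK5 arm. Of the interacting-protein genes, Mapk8ip3 (JIP3, a JNK scaffold) had a start-site peak at 6.39 and a peak at 8.57 at the start of Spsb3. Mapk8ip1 (JIP1) had 1 peak at 4.05, at the start of Pex16, and Mapk8ip2 (JIP2) had none. Mapk1ip1 had 1 peak of 1001 bp (chr7:146037299-146038299, pileup 67, control level 5.42, fold enrichment 10.6), which lay 0.095 kb from the start of Ppp2r2d, and Mapk1ip1l had 1 at 3.90.

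By place, 38 of the 94 peaks lay at an own start site, 33 in an own intron, 11 upstream and 12 downstream. Any annotated start site lay within 1 kb of 54.3% of them (interval 43.7 to 64.6; 51 of 94), against 39.2% of all deposited peaks and 48.1% of peaks in windows of protein-coding genes. The own start-site peaks were of modest strength, with a median fold enrichment of 5.38 and 3 of 38 at 10 or more (at Map3k1, Map3k14 and Mapk1ip1), and 8 of the 13 peaks that were not high-confidence were among them. The intronic peaks had a median of 5.76 with 10 of 33 at 10 or more. The downstream peaks had a median of 8.88, and 11 of these 12 lay at the start site of another gene. Across all 94, 40 also lay in another protein-coding gene's window and 21 had a gene outside the cascade as the nearest start site. Those 21 had a median fold enrichment of 8.88, against 5.45 for the 73 nearest to a cascade gene.

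The core ATCAAAG was present up to 100 bp from 8 of the 94 summits (8.51%, interval 3.75 to 16.1), against 9.76% of all peaks. In flanking windows of the same length 2 kb to either side it was present in 3.19% for cascade peaks and 3.30% for all peaks. The ETS core was present at 8 (8.51%, against 6.50%) and the Runx core at 15 (16.0%, against 14.8%). Core peaks were found at Map4k4 (3 peaks), Map3k14, Map2k5, Mapk12 and Mapk1ip1, among others, and in each of the 8 the core stood within 75 bp of the summit. Of the 21 cascade peaks with a fold enrichment of at least 10, 7 held the core (33.3%, interval 14.6 to 57.0), against 15.7% of all deposited peaks of that strength. Of the 73 weaker peaks 1 held it (1.37%, interval 0.0347 to 7.40), against 7.93%. The core was thus found mostly at the stronger cascade peaks, but these were few. Of the 8 core peaks, 3 lay at Map4k4 and 3 had a gene outside the cascade as the nearest start site. The interval of 14.6 to 57.0 contains the 15.7% of all deposited peaks of that strength. A match is a description of the letters, and binding through it was not tested.

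The strongest core-carrying peak of each lower tier is shown to set beside those of Map4k4, as the mm9 plus strand up to 100 bp either side of the summit, with the core or its reverse complement in capitals. They are the intron 1 peak of Map3k14 (chr11:103127316-103127516), the intron 21 peak of Map2k5 (chr9:63021884-63022084) and the peak downstream of Mapk12 at the start of Hdac10 (chr15:88958803-88959003). The strongest MAP2K-tier peak, downstream of Map2k2 (chr10:80590310-80590510), held no Tcf/Lef core and held the ETS core, in capitals.
Map3k14: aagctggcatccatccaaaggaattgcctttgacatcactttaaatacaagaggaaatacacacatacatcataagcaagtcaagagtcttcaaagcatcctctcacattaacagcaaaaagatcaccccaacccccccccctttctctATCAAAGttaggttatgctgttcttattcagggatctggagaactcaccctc
Map2k5: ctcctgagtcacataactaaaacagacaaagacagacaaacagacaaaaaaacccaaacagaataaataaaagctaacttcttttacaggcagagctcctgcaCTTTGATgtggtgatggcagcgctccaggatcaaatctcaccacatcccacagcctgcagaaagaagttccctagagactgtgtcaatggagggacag
Mapk12: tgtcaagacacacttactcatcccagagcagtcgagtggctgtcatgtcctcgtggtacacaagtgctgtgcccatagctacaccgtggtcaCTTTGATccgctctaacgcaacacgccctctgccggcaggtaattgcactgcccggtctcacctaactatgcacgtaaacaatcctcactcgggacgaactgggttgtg
Map2k2: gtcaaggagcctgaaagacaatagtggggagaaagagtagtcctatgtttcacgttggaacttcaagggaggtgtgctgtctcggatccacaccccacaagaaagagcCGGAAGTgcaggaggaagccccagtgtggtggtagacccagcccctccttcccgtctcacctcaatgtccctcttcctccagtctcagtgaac
In the Map2k5 and Mapk12 windows the core stood 6 and 5 bp from the summit, and in Map3k14 52 bp away. The strongest peaks of the MAP3K and MAPK tiers, at Map3k4 and Mapk12 intron 11, held none of the 3 cores in this window.

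Other genes of the pathway, from lists of upstream GTPases and Raf kinases, MAPK-activated kinases, scaffolds and related kinases, had peaks at 24 of 27 genes matched in the annotation (88.9%), with 61 peaks, a mean of 2.26 per gene and a median fold enrichment of 7.01. Over all protein-coding genes 52.5% had a peak and the mean was 1.13, with shorter windows (median 35.5 kb, against 71.6 kb), and per 100 kb of window the pathway genes held 2.05 peaks against 1.72. The median fold enrichment of all deposited peaks was 6.09. Mknk2, an ERK and p38 target kinase that phosphorylates eIF4E, had 6 peaks of which the strongest reached 45.5. Nlk had 7 peaks and Taok3 had 5. Tab1, the partner of TAK1, had 2 peaks with a highest fold enrichment of 21.1. Araf, Rps6ka4 and Ksr2 had none.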

How the data were processed

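Tcf1 ChIP-seq was performed on 1 WT and 1 Tcf1-deficient library of naïve CD8+ T cells. Per the submitters' processing notes and the file header, reads were checked with FastQC and aligned by the authors to mm9 with Bowtie2 2.2.5, and peaks were called with MACS2 2.1.1.20160309 from paired-end fragments, with p under 1e-05 required and 1 fragment kept per position. The deposited signal column (pileup) is the unscaled coverage of WT fragments over the summit. The deposited fold enrichment is a ratio to the control level with a pseudocount of 1, and the deposited −log10 p and −log10 q are the authors' values from the peak caller. The header says that the larger library was scaled and that q was not calculated, but pileups are whole numbers that gave the deposited p unscaled, and every q is above 0. Positions and widths are deposited in 1-based bp.

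The control level was computed back as the pileup plus 1, divided by the fold enrichment, minus 1. Genes, introns and start sites came from GENCODE vM1 and sequence from NCBIM37 (mm9), read with pysam 0.24.0 in Python 3.11.15 (pandas 2.3.3, numpy 2.4.6). Of 22380 protein-coding entries, those that share a symbol and overlap were joined to 22283 genes. A start-site peak had its summit within 1 kb of a transcript start. Intervals at 95% were exact Poisson for pileups and means, exact binomial for shares (scipy 1.17.1) and order-statistic for medians. The peak-to-gene assignment and motif search were tested on simulated data. No test between groups or genes was made, since each group held 1 library. Members were named with their number of peaks, except 1 that is counted in the totals but not reported here by name, as is 1 gene of the pathway lists. Members with at least 4 peaks, a peak with a fold enrichment of at least 10 or a core match had their strongest peak given in full. Members and lists were chosen with earlier results of these data known. Of 29 pathway symbols, Hras and Zak were not matched. Alternatives covered the window, peak thresholds, start-site distance and motif, and no per-sample value column was left unused.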

Additional observations from a re-analysis of the deposited data

How the results depend on the processing

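Of 87 values under alternative settings, 65 stayed within counting error or within 1.5 times of the reported value and 22 moved. With the gene body alone as window, 23 genes (51.1%, against 27.9% of protein-coding genes) held 49 peaks, with means of 3.20, 0.933, 1.29 and 0.692 per gene for MAP4K, MAP3K, MAP2K and MAPK. With 50 kb at either end there were 176 peaks, with means of 9, 4.20, 3.71 and 2.85. With peaks of a fold enrichment of at least 8 alone, 20 genes (44.4%, against 24.5%) held 34 peaks, with means of 2, 0.800, 0.429 and 0.538, a core share of 20.6% and a median fold enrichment of 12.7. MAP4K genes led under each of these, all of which kept Map4k4. The lead without Map4k4 was not computed under these settings. With q under 1e-10 the median fold enrichment was 7.63. The core read backwards was found at 1.06% of peaks. With control levels at the floor alone, the strongest MAP2K peak was that of Map2k5, at 13.4. Leaving out Map4k4, chosen after its values were seen, left 83 peaks.

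No paired analysis was possible because each group held 1 library. Depth limits these counts: at the control floor a high-confidence peak needs a pileup of 25, and 13 of the 94 peaks were deposited below a fold enrichment of 4. Assignment by distance does not show which gene a peak acts on, 40 of the 94 peaks lay in more than 1 gene's window, and the control's genotype differs between the sources.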
